A study of Rattus norvegicus with 6 samples.

Results

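Potassium channel genes were described in cultured rat oligodendrocyte precursor cells, proliferating glia from which the myelin-forming oligodendrocytes arise. They were taken as every row of the deposited table whose symbol is Kcn followed by lower-case letters and a number. This gave 93 rows with 92 symbols in 20 subfamilies, out of 32662 rows in all (Kcnn2 has 2 rows). The cells came from the cerebral cortex of Sprague-Dawley rats 1 to 2 days old. Mixed glia were grown with 20% fetal bovine serum. The non-adherent fraction was plated for 4 to 5 days with 2% B27 supplement and the growth factors PDGF and FGF at 10 ng/ml, conditions common to both groups. The 3 control libraries are labelled Control, and the 3 fibril libraries come from cells given preformed fibrils of human alpha-synuclein for 72 hours. Aggregates of this protein inside oligodendrocytes define multiple system atrophy. The fibrils are thus human protein given to rat cells. Whether same-group libraries stem from different animals or dishes is not stated in the labels, and the p-values therefore reflect the spread among these libraries alone, which may be technical.

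Potassium channels let potassium ions leave or enter a cell and so set its membrane potential. Voltage-gated channels open on depolarization, calcium-activated channels open when internal calcium rises, inward rectifiers hold the resting potential and take up potassium, and tandem-pore channels carry a steady leak. Precursor cells carry large outward voltage-gated currents, and cells of the oligodendrocyte lineage are known to gain inward rectifier current as they mature. Auxiliary subunits do not form a pore but change the gating or the traffic of a pore subunit.

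Values are FPKM, fragment numbers scaled for gene length and library size, so levels can be compared between genes. Of the 93 rows, 71 (76.3%) were above 0 in at least 1 library, against 48.8% of all rows of the table. Only 24 (25.8%) reached 1 FPKM in at least 3 libraries and were tested, against 33.0% of all rows (10766 genes). A gene that is high in 1 group alone could pass this filter through that group. A further 8 rows reached 1 FPKM in fewer than 3 libraries, 39 stayed between 0 and 0.979 FPKM, and 22 were listed at 0 throughout. Hprt1 and Rps6, genes that every cell uses, were also listed at 0 in all 6 libraries, so a 0 can be a failed estimate.

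The libraries differed in depth and composition. Replicate 1 of each group showed 35 of the 93 rows above 0, and the other 4 libraries showed 47 to 60. In replicate 1, 1 fragment was worth 4.03 (control) and 6.92 (fibril) times as much as in control replicate 2, so its low values are the least precise, against 0.818 to 1.96 times in the other 3. Mitochondrially encoded genes held 80.3% and 75.6% of all FPKM in control and fibril replicate 1, and 12.0% to 40.1% in the others.

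The levels were uneven. Kcnip3, an auxiliary subunit of the Kcnd channels that also acts as a calcium-binding transcriptional repressor, averaged 63.1 FPKM over the 6 libraries and held 23.1% to 47.4% of the summed FPKM of all 93 rows. Kcnmb4, the neuronal-type beta subunit of the large-conductance calcium-activated channel, averaged 25.9 FPKM. Kcnj10, the main inward rectifier of glia, averaged 13.2 FPKM, Kcnj12, a strong inward rectifier, 10.4 FPKM, and Kcnd3, a pore subunit of transient A-type current, 8.08 FPKM.

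**Figure D1:**
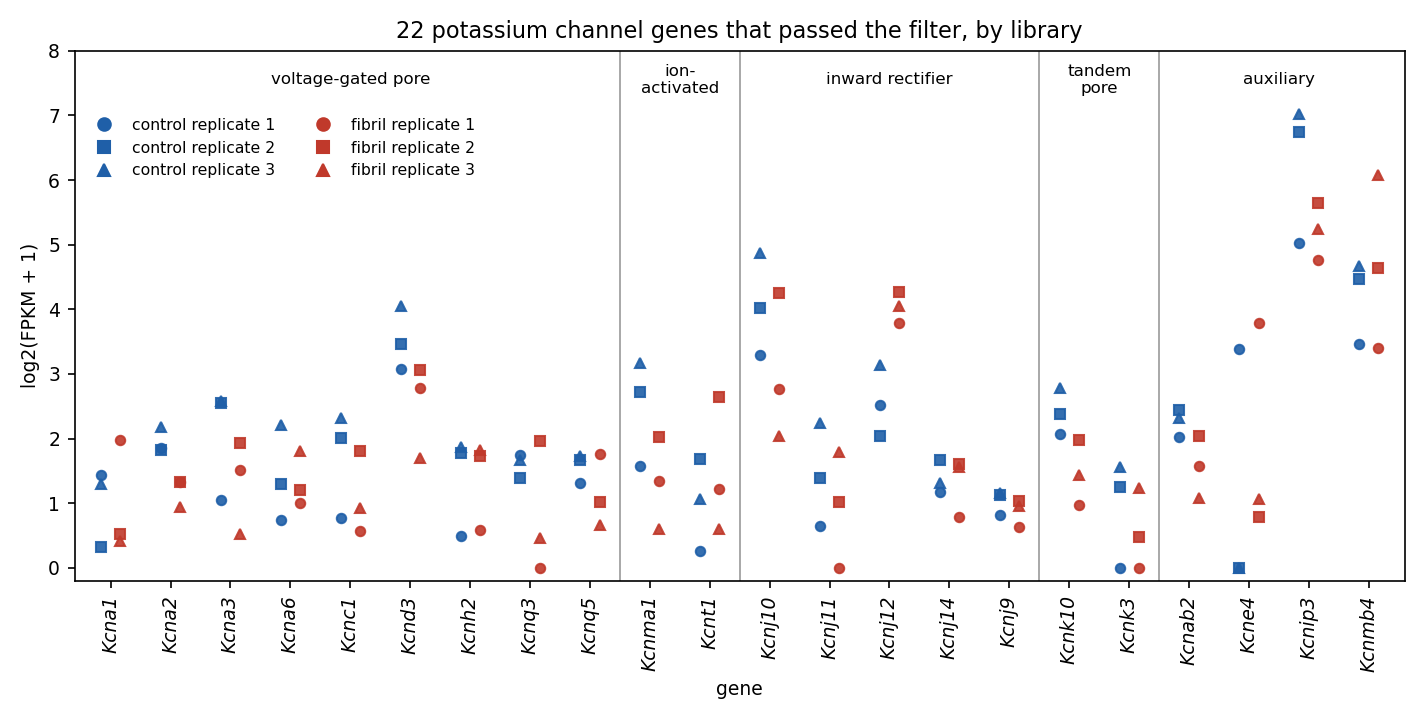
Level of 22 of the 24 potassium channel genes that passed the filter, as log2(FPKM + 1), in every library, grouped by class; blue stands for control, red for fibril, and the symbol for the replicate number. Kcnip3 is the highest on average, and all 3 red points lie above all 3 blue points for Kcnj12 only.

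The comparison of fibril and control libraries asked which of these genes differ in cells that met fibrils. The clearest was Kcnj12, at 5.22 ± 2.40 FPKM (SD, n = 3) without and 15.6 ± 2.79 FPKM (SD, n = 3) with fibrils, a ratio of means of 2.98. Most others were lower: 20 of the 24 tested genes (83.3%) had a negative log2 difference, against 53% of all 10766 tested genes. By limma on log2(FPKM + 1) no potassium channel gene passed an adjusted p of 0.05, either without a block or with the replicate number as a block. With 3 libraries a group, a gene that did not pass is not shown to be unchanged. Over all genes, 0% were called in either direction without a block, and with it 0.111% were called higher and 0% lower. At an unadjusted p under 0.05 there was 1 member without a block (4.17%, against 4.02% of all genes) and 4 with it (16.7%, against 9.84%). With 3 libraries against 3, the smallest p an exact permutation test can give is 0.1.

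The median log2 difference over the 24 genes was -0.46, against -0.04 over all tested genes. Leaving out control replicate 3 brought it to -0.20, and leaving out control replicate 1 to -0.76. Within replicate numbers 1, 2 and 3 the medians were -0.21, -0.14 and -0.99, against 0.003, -0.04 and -0.05 over all genes, so the gap was widest in replicate 3. All 3 replicate numbers were lower with fibrils for 10 of the 24 genes (41.7%, against 19.3% of all genes) and higher for 2 (8.33%, against 16.9%). Scaling without mitochondrial genes moved the median of all genes to -0.30. There 20 of 24 were again negative, but so were 72.3% of all genes, and 17 of 24 lay below the median of all genes. The median of the 24 was -0.66, or -0.36 relative to all genes. Under quantile normalization 15 of 24 were negative, against 49.96% of all genes, with a median of -0.29. In bulk RNA, fewer cells of a type and less RNA per cell cannot be told apart.

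In 3 of the 24 genes (12.5%, against 5.3% of all genes) every fibril library lay below every control: Kcna2, Kcnd3 and Kcnk10. In 1 (4.17%, against 4.24%), Kcnj12, every fibril library lay above every control. Without control replicate 1, 11 genes lay below (45.8%, against 18.7% of all genes) and 2 above (8.33%, against 11.4%). Without fibril replicate 2, 8 lay below (33.3%, against 14.5%) and 1 above (4.17%, against 9.76%). Scaled without mitochondrial genes, 1 (Kcna2) lay below (4.17%, against 7.06%) and 0 above, against 2.5%. The share below thus exceeded that of all genes as deposited, but not with this scaling.

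**Figure D2:**
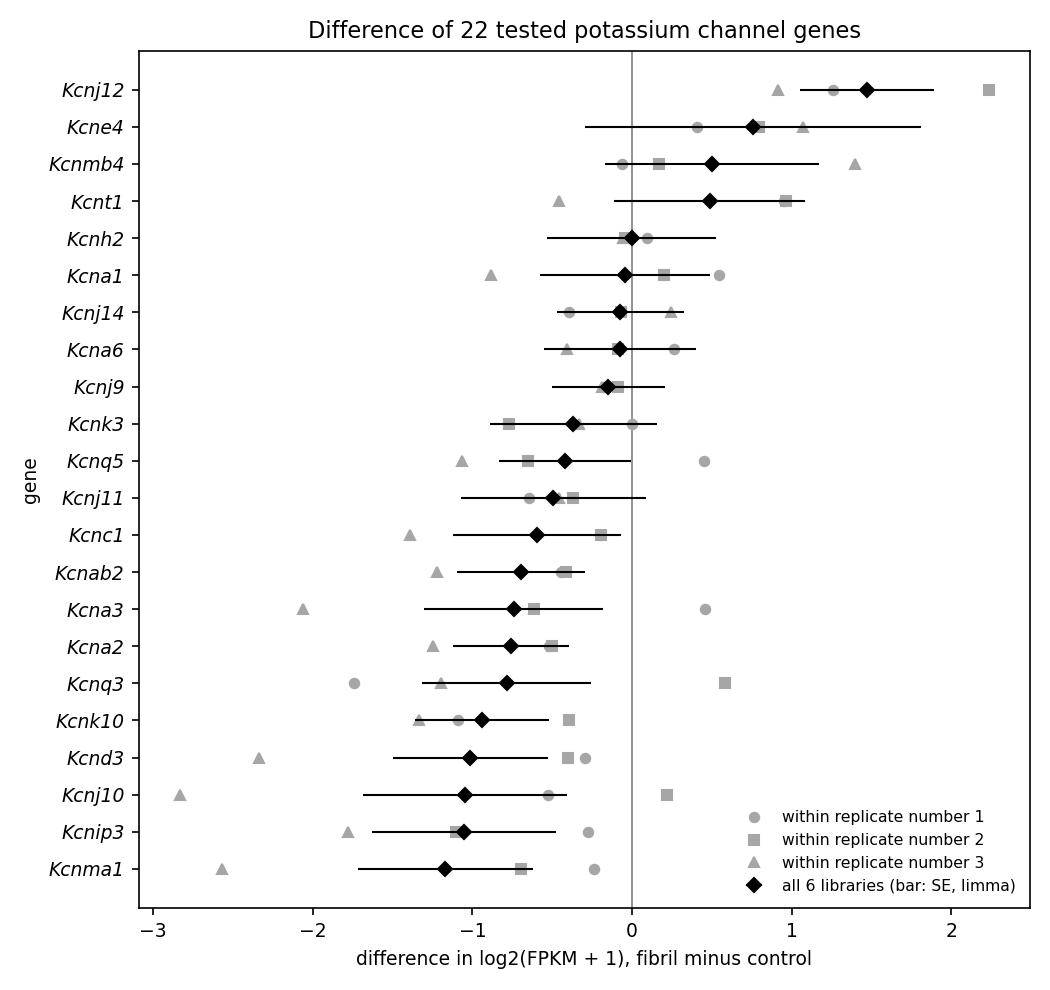
Difference in log2(FPKM + 1), fibril minus control, of 22 of the 24 tested potassium channel genes, sorted (diamonds, all 6 libraries, with the SE from limma; grey markers, the difference within each replicate number). Kcnj12 is at the top with all 3 grey markers above 0, and the triangles of replicate 3 lie farthest left for most of the lower genes.

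Promoter sequences are shown for Kcna2 and Kcnd3, both with all fibril libraries below all controls; they are the 250 bases before the annotated start, 5′ to 3′, from RefSeq on build GRCr8. Capitals mark GC boxes (GGGCGG, or CCGCCC on the other strand). The Kcna2 window is chr2:197393280-197393529 and the Kcnd3 window is chr2:195626066-195626315, both on the plus strand.
Kcna2: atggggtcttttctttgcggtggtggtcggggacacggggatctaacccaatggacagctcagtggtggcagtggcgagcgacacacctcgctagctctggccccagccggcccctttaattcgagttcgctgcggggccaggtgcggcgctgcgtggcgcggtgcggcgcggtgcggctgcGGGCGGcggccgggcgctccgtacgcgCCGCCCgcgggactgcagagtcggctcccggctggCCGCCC
Kcnd3: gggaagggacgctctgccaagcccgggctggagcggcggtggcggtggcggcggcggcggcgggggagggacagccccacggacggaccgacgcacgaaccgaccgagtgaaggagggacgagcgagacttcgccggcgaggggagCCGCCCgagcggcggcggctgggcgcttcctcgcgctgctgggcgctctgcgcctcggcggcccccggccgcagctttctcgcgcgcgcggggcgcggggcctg

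Both windows are rich in GC: 72.4% with 33 CpG dinucleotides for Kcna2 and 79.6% with 43 for Kcnd3. By symbol, 62 members matched a promoter entry. The median over the 15 tested members among them was 65.2% with 20.0, and over 7938 tested genes of all kinds 61.2% with 17.0. A GC box stood in 10 of these 15 promoters (66.7%), in 61.9% of the promoters of tested genes and in 30.5% of all 33469 promoters. The TATA box (TATAAA, or TTTATA on the other strand) stood in 0 of the 15 and in 5.59% of the promoters of tested genes. A CCAAT box (CCAAT or ATTGG) stood in 4 of the 15 (26.7%), Kcna2 among them, and in 36.5% of those of tested genes. These matches describe letters only. Kcnj12 and Kcnk10 had no entry.

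Among voltage-gated pore subunits, 29 rows in 6 subfamilies, 26 were above 0 somewhere and 11 were tested. All 11 had negative differences as deposited and when scaled without mitochondrial genes, with a median of -0.60 as deposited, and 8 of 11 were negative under quantile normalization (Kcna1, Kcna6 and Kcnh2 turned positive). None passed the limma test. In replicate 3 all 11 were lower with fibrils, in replicate 2 it was 8 and in replicate 1 it was 6. Of all 10766 tested genes, 5525, 5864 and 5191 were lower in replicates 3, 2 and 1.

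Kcnd3 (chromosome 2, 207923774 to 208140727 in the deposited table, build not given in the sources used here) had 7.43, 10.1 and 15.5 FPKM in control replicates 1, 2 and 3. The fibril libraries gave 5.86, 7.36 and 2.27 FPKM. The groups did not overlap, but fibril replicate 2 lay just below control replicate 1. The log2 difference was -1.01 (SE 0.48, limma adjusted p = 0.96), and within replicates it was -0.30, -0.40 and -2.34. Without fibril replicate 3 it was -0.61, and scaled without mitochondrial genes the groups overlapped.

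Kcna2, a delayed rectifier pore subunit of axons and glia (chromosome 2, 209838868 to 209852471), had 2.61, 2.56 and 3.55 FPKM in controls. Fibril replicates 1, 2 and 3 had 1.52, 1.51 and 0.915 FPKM. Each fibril library was below each control, with a log2 difference of -0.76 (SE 0.36, limma adjusted p = 0.96).

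Kcna3, a delayed rectifier known from proliferating precursors and from microglia, had 1.07, 4.83 and 4.98 FPKM in controls, and in the fibril libraries 1.85, 2.81 and 0.431 FPKM. It was higher with fibrils in replicate 1 and lower in replicates 2 and 3, and the groups overlapped (log2 difference -0.74, SE 0.56, limma adjusted p = 0.96). Its locus in the table is shared with AABR07012826.1, which had 4.34 and 7.59 FPKM in control replicates 2 and 3 and 5.63 FPKM in fibril replicate 2, and 0 elsewhere. How fragments were divided between these overlapping models is not given in the sources used here, so the value of Kcna3 is uncertain.

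Kcna6, another delayed rectifier of the lineage, had 0.673, 1.45 and 3.64 FPKM in controls, and in the fibril libraries 1.01, 1.31 and 2.49 FPKM (log2 difference -0.08, SE 0.48, limma adjusted p = 0.996). The groups overlapped fully, and the difference became 0.32 without control replicate 3 and 0.088 without fibril replicate 1. Kcna1, a low-threshold axonal pore subunit, had 1.71, 0.256 and 1.46 FPKM against 2.95, 0.445 and 0.335 FPKM, and the groups overlapped although fibril replicate 1 was the highest library. Kcna5, a further pore subunit reported in precursor cells, was listed at 0 in all 6 libraries, as was Kcna10. Kcna4 reached at most 0.315 FPKM and Kcna7 at most 0.0764 FPKM.

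Kcnc1, a fast delayed rectifier, had 0.716, 3.01 and 3.97 FPKM in controls. Fibril replicates 1, 2 and 3 had 0.492, 2.51 and 0.894 FPKM. It was lower with fibrils in all 3 replicate numbers, and the groups overlapped.

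Kcnq3 and Kcnq5 encode subunits of the M-current, which opposes repeated firing. Kcnq3 had 2.34, 1.61 and 2.17 FPKM in controls, and in the fibril libraries 0, 2.92 and 0.379 FPKM, so fibril replicate 2 exceeded every control. Kcnq5 had 1.48, 2.18 and 2.31 FPKM against 2.40, 1.02 and 0.583 FPKM (log2 difference -0.42, SE 0.41, limma adjusted p = 0.96), and here fibril replicate 1 was the highest. Kcnh2, which encodes the pore of the rapid delayed rectifier of heart muscle, had 0.403, 2.44 and 2.67 FPKM against 0.499, 2.33 and 2.53 FPKM. Both replicate 1 libraries were lowest, and its log2 difference was -0.002 (SE 0.53, limma adjusted p = 1.00). Leaving out control replicate 2, control replicate 3 or fibril replicate 1 turned it to 0.20, 0.24 and 0.40. Kcnh7, of the same subfamily, did not pass the filter. It had 0.861, 0.972 and 1.14 FPKM in controls, and in the fibril libraries 0.296, 0.441 and 0 FPKM, without overlap.

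The modifier subunits Kcnf, Kcng, Kcns and Kcnv, which form no channel alone and alter other voltage-gated channels, were nearly absent from the values. Of their 10 rows, 5 were listed at 0 throughout and the rest summed to at most 0.576 FPKM in any library.

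Among ion-activated pores, 9 rows, 6 were above 0 and 2 were tested. Kcnma1, the pore of the large-conductance calcium-activated channel (chromosome 15, 344359 to 1047956), had 1.99, 5.61 and 8.01 FPKM in controls. The fibril libraries gave 1.53, 3.09 and 0.515 FPKM. It was lower with fibrils in all 3 replicate numbers, by -0.24, -0.69 and -2.57, yet the groups overlapped because control replicate 1 lay below fibril replicate 2. Its log2 difference of -1.17 (SE 0.55, limma adjusted p = 0.96) was the most negative of the 24.

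Kcnt1, a sodium-activated channel, had 0.20, 2.21 and 1.09 FPKM against 1.32, 5.26 and 0.525 FPKM (log2 difference 0.49, SE 0.60, limma adjusted p = 0.964). It was higher with fibrils in replicates 1 and 2 and lower in replicate 3, and the difference was -0.0925 without fibril replicate 2. The small-conductance calcium-activated channels were low: Kcnn2 reached 1.82 FPKM in fibril replicate 3 and 1.31 FPKM in control replicate 3, and Kcnn3 stayed at 0.979 FPKM or less. Kcnn4, the intermediate-conductance channel of immune cells, was listed at 0 in all libraries.

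Inward rectifiers, 15 rows with 13 above 0 and 5 tested, held both the highest and 1 of the lowest differences. Of the 5, only Kcnj12 was positive as deposited and when scaled without mitochondrial genes, while under quantile normalization Kcnj9 and Kcnj14 were also positive. The class sum was 16.4, 24.6 and 44.2 FPKM in controls, and in the fibril libraries 21.2, 42.1 and 24.5 FPKM, higher in replicates 1 and 2 and lower in replicate 3.

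Kcnj12 lies on chromosome 10, 47281785 to 47341411 in the deposited table. It had 4.74, 3.10 and 7.83 FPKM in control replicates 1, 2 and 3, and 12.8, 18.4 and 15.6 FPKM with fibrils. Every fibril library was above every control. The log2 difference was 1.47 (SE 0.42, limma adjusted p = 0.948), and 1.26, 2.24 and 0.91 within replicates. Its unadjusted limma p was 0.00678, and 0.0488 when scaled without mitochondrial genes. With 1 library left out this p ran from 0.0054 (control replicate 3) to 0.0423 (control replicate 2). With the block the adjusted p was 0.306. Scaled without mitochondrial genes, the log2 difference was 1.20 (1.50 relative to all genes) and control replicate 3 (10.76) came level with fibril replicate 1 (10.70), so the groups then overlapped. No fit with 1 library left out called it.

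Kcnj10, the main glial inward rectifier (chromosome 13, 90723091 to 90752581), had 8.80, 15.3 and 28.3 FPKM in controls. Fibril replicates 1, 2 and 3 had 5.79, 18.0 and 3.10 FPKM. The groups overlapped, since fibril replicate 2 lay above control replicates 1 and 2 (log2 difference -1.05, SE 0.64, limma adjusted p = 0.96). The difference came mainly from replicate 3, at -2.83, against -0.53 and 0.22 in replicates 1 and 2. It was -0.56 without fibril replicate 3, -0.64 without control replicate 3 and -1.66 without fibril replicate 2. Kcnj16, which forms mixed channels with Kcnj10, did not pass the filter and had 0, 0.414 and 0.203 FPKM against 0.573, 0.108 and 0 FPKM.

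The genes closest to Kcnj12 within the strong rectifiers were low. Kcnj2 had 0, 0.0878 and 0 FPKM in controls, and in the fibril libraries 0.606, 0.801 and 0 FPKM. Kcnj4 had 0, 0.534 and 1.35 FPKM against 0, 0.488 and 0.419 FPKM. Kcnj14 passed the filter with 1.27, 2.18 and 1.48 FPKM against 0.726, 2.03 and 1.94 FPKM, and its groups overlapped. None of the 3 showed the separation seen in Kcnj12.

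Kcnj11, the pore of the ATP-sensitive channel, had 0.567, 1.63 and 3.75 FPKM in controls, and in the fibril libraries 0, 1.03 and 2.46 FPKM. Kcnj9, a G protein-activated rectifier, had 0.756, 1.19 and 1.22 FPKM against 0.557, 1.06 and 0.948 FPKM. Both were lower with fibrils in all 3 replicate numbers while their groups overlapped. Kcnj8, the ATP-sensitive pore of vascular mural cells, was listed at 0 in all libraries.

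**Figure D3:**
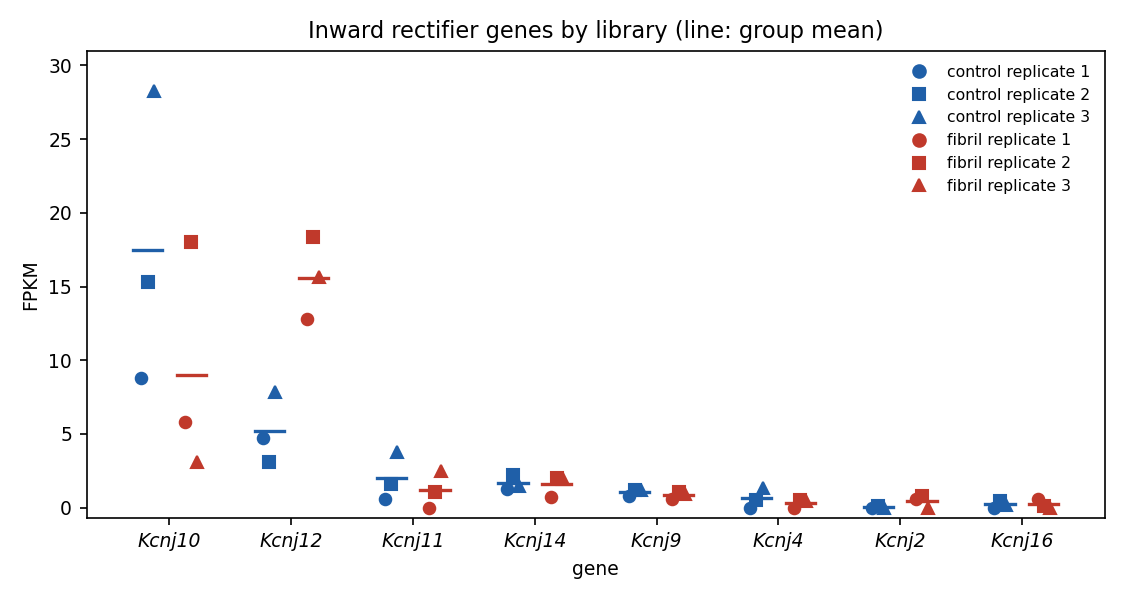
FPKM of 8 inward rectifier genes in each library (control in blue, fibril in red, symbols by replicate number, horizontal lines at group means, linear axis). For Kcnj12 the 3 fibril libraries lie between 12.8 and 18.4 FPKM, above the highest control at 7.83 FPKM, while for Kcnj10 the groups overlap.

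Tandem-pore leak channels, 14 rows with 11 above 0, had 2 tested members. Kcnk10, a leak channel opened by stretch and lipids (chromosome 6, 122419045 to 122545899), had 3.19, 4.20 and 5.87 FPKM in controls. In the fibril libraries the values were 0.968, 2.95 and 1.72 FPKM. The groups did not overlap (log2 difference -0.94, SE 0.42, limma adjusted p = 0.96), and the within-replicate differences were -1.09, -0.40 and -1.34. Scaled without mitochondrial genes the groups overlapped. Kcnk3, an acid-sensitive leak channel, was at 0 in both replicate 1 libraries, with 1.37 and 1.96 FPKM in the other controls and 0.39 and 1.35 FPKM in the other fibril libraries.

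Kcnk2, the closest relative of Kcnk10, did not pass the filter, with 0, 0.594 and 1.17 FPKM against 0, 0.258 and 0.621 FPKM. Kcnk15 had at most 0.728 FPKM in controls and reached 1.65 FPKM in fibril replicate 3. Kcnk1, a leak channel common in astrocytes, reached at most 0.235 FPKM. The class sum was lower with fibrils in all 3 replicate numbers, at 3.92, 7.82 and 11.2 FPKM against 1.67, 5.06 and 6.61 FPKM.

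Auxiliary subunits, 16 rows with 10 above 0 and 4 tested, had 2 negative and 2 positive differences, a split that both other scalings also gave. Kcnip3 (chromosome 3, 120023916 to 120087136) had 31.8, 106 and 129 FPKM in controls. The fibril libraries gave 26.0, 48.9 and 36.9 FPKM. The 2 highest libraries were control replicates 2 and 3, but control replicate 1 lay below fibril replicates 2 and 3, so the groups overlapped. The log2 difference was -1.05 (SE 0.57, limma adjusted p = 0.96), or -0.28, -1.10 and -1.78 within replicates. It was -1.67 without control replicate 1 and -0.67 without control replicate 3. With the block its unadjusted limma p was 0.0194 and its adjusted p 0.464.

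Kcnmb4 (chromosome 7, 59461798 to 59514939) had 10.1, 21.1 and 24.6 FPKM in controls, and in the fibril libraries 9.58, 23.8 and 66.5 FPKM. Only fibril replicate 3 stood above the controls. The log2 difference of 0.50 (SE 0.67, limma adjusted p = 0.966) became -0.18 without that library and 0.13 without control replicate 1. Its partner pore Kcnma1 was lowest in the same library.

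Kcnab2, a beta subunit of Kcna channels, had 3.05, 4.45 and 3.97 FPKM in controls, and in the fibril libraries 1.98, 3.10 and 1.13 FPKM. It was lower in all 3 replicate numbers, with an overlap of fibril replicate 2 and control replicate 1 (log2 difference -0.69, SE 0.40, limma adjusted p = 0.96). Kcnab1, a second beta subunit, had 1.47, 0.963 and 0.72 FPKM against 1.13, 0.262 and 0.472 FPKM.

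Kcne4, a small membrane subunit that inhibits Kcna and Kcnq channels, was high in replicate 1 alone. It had 9.41 FPKM in control and 12.8 FPKM in fibril replicate 1, 0 in control replicates 2 and 3, and 0.735 and 1.10 FPKM in fibril replicates 2 and 3. Its log2 difference of 0.76 (SE 1.05, limma adjusted p = 0.966) became -0.19 without fibril replicate 1. Kcne2, of the same subfamily, had 1.03, 0.942 and 0.839 FPKM in controls, and in the fibril libraries 0, 0.447 and 0.672 FPKM, without overlap but under the filter. Kcnip1, whose locus in the table is the same as that of Kcnmb1, had 0, 1.16 and 1.31 FPKM against 0, 0.139 and 0 FPKM.

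**Figure D4:**
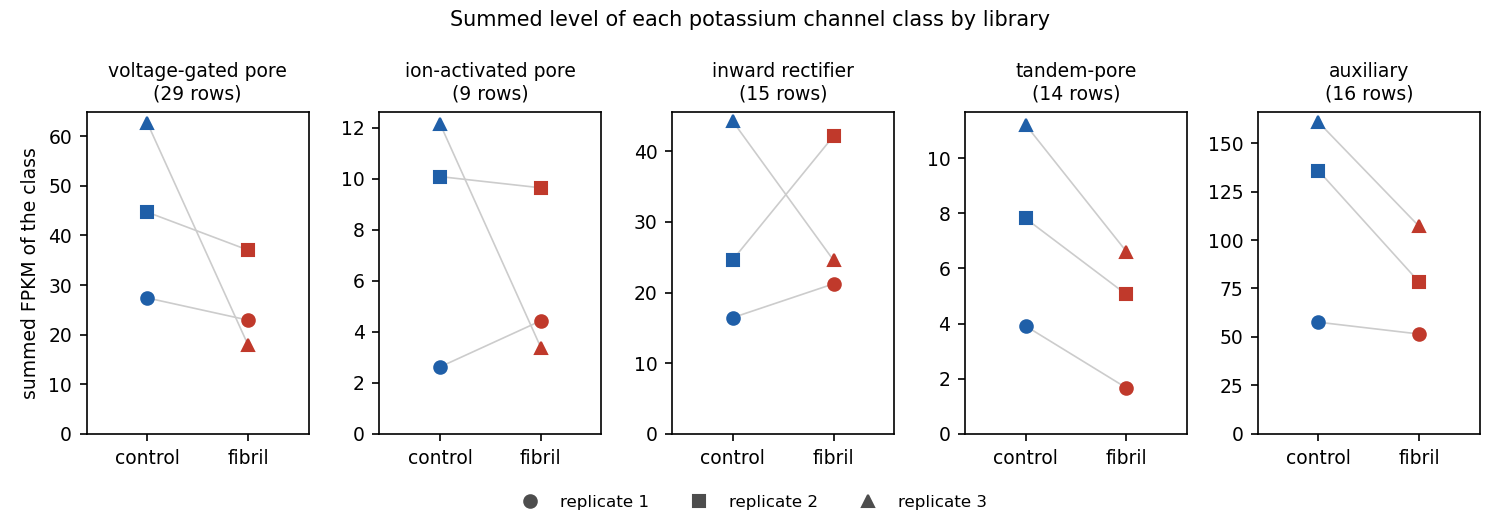
Summed FPKM of all rows of 5 potassium channel classes in each library (control in blue, fibril in red, symbols by replicate number joined by grey lines; each panel has its own linear axis from 0). The voltage-gated, tandem-pore and auxiliary sums are lower with fibrils in every replicate number, and control replicate 1 is the lowest control in every class.

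Voltage-gated pore sums were 27.4, 44.7 and 62.7 FPKM in controls, and in the fibril libraries 22.9, 37.1 and 17.9 FPKM. The auxiliary sums, set mainly by Kcnip3 and Kcnmb4, were 57.6, 136 and 161 FPKM against 51.5, 78.3 and 107 FPKM. The sum over all 93 rows was 108, 224 and 291 FPKM in controls, and in the fibril libraries 102, 172 and 160 FPKM. It was lower in each replicate number, least so in replicate 1.

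Genes that share tasks with these channels were examined as lists. Of 40 genes of potassium transport and channel partnership, 27 were tested and 0 passed the limma test in either direction without or with the block. Of these 27, 21 had negative differences, against 53% of all genes, with a median of -0.26, against -0.04 over all genes. Every fibril library lay below every control for 6 of the 27 and above for 1, against 5.3% and 4.24% of all genes. For this list and those below, separation is given only as deposited. For the potassium channel genes the share below did not exceed that of all genes when scaled without mitochondrial genes (4.17%, against 7.06%). Among those with the smallest p were Lgi3, Dpp10, Adam22 and Atp1b2. Lgi3, a secreted protein that helps cluster Kcna channels, had 0, 0.381 and 0.483 FPKM in controls, and in the fibril libraries 2.67, 1.21 and 3.65 FPKM. Adam22, a membrane receptor of the Lgi proteins, had 5.49, 6.93 and 12.8 FPKM against 2.70, 5.83 and 0.89 FPKM, with fibril replicate 2 above control replicate 1. Lgi3 passed the filter through the fibril libraries alone, and neither gene passed the test (limma adjusted p = 0.96 for both).

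Atp1b2, the glial beta subunit of the pump, had 40.2, 43.9 and 55.2 FPKM against 27.9, 23.5 and 24.0 FPKM. Dpp10, which like Kcnip3 joins Kcnd channels, had 21.2, 16.2 and 28.6 FPKM against 11.5, 13.4 and 6.37 FPKM. Both had every fibril library below every control, and their limma adjusted p was 0.96.

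Of 33 other voltage-gated sodium, calcium and related channel genes, 20 were tested and 0 passed without or with the block. Of these 20, 18 had negative differences, against 53% of all genes. Their median log2 difference was -0.57, beside -0.46 for the potassium channel genes in the same libraries. As deposited, every fibril library lay below every control for 7 of the 20 and above for 0, against 5.3% and 4.24% of all genes. Cacng4, an auxiliary subunit of calcium channels and AMPA receptors, had 186, 108 and 162 FPKM in controls, and in the fibril libraries 93.5, 65.2 and 56.0 FPKM. The next smallest p belonged to Cacna2d1, Cacnb2, Scn8a and Scn3a, with log2 differences of -0.95, -0.76, -0.98 and -1.01 (limma adjusted p = 0.96 for all 4).

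Marker genes of the cell types a mixed glial culture can hold moved beside these values. The 7 precursor markers in the table summed to 1464 to 2392 FPKM in controls and 1180 to 1382 FPKM with fibrils, with 6 of 7 negative. The groups overlapped for each of the 7. Much of the sum was Olig1, Olig2 and Sox10, at 602, 252 and 332 FPKM in fibril replicate 3. Pdgfra had 47.5, 146 and 304 FPKM in controls, and in the fibril libraries 43.4, 95.3 and 60.2 FPKM. The sum therefore does not show how abundant precursors were with fibrils. The 10 markers of differentiating oligodendrocytes summed to 322 to 786 FPKM against 2180 to 3987 FPKM. All 8 tested were positive, and 7 had every fibril library above every control, against 4.24% of all genes. With the block 3 of the 8 (Enpp6, Mag and Mbp) were called higher, against 0.111% of all genes. When scaled without mitochondrial genes as well, only Mbp of these 8 was called, against 0.00929% of all genes. The 8 astrocyte markers summed to 145 to 162 FPKM against 92.7 to 232 FPKM, with 5 of 7 tested negative. The highest of these sums, in fibril replicate 3, was mainly Aldoc at 181 FPKM. Every fibril library lay below every control for 3 of the 7 and above for 1, against 5.3% and 4.24% of all genes. The 8 neuron markers summed to 273 to 602 FPKM against 112 to 398 FPKM, with all 7 tested negative. Of these 7, 3 had every fibril library below every control, against 5.3% of all genes, and 0 above. The 9 microglia and macrophage markers in the table summed to 1.36 to 38.8 FPKM against 11.9 to 59.6 FPKM, with 5 of 6 tested positive. Of these 6, 1 had every fibril library above every control and 0 below. The 4 endothelial markers summed to at most 0.124 FPKM, with Cldn5 at 0. Of the 7 mural and fibroblast markers, Acta2 was at 0 and Cspg4, also a precursor marker, held nearly all of the sum. Of all tested genes, 53% had a negative difference. The part of these cell types in the potassium channel values was not tested.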

How the data were processed

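Gene expression in 6 libraries (3 control, 3 fibril) was analysed from 1 deposited table of FPKM, 1 column per library per the file headers. Libraries were strand-specific (Agilent SureSelect), per the labels' protocols. The submitters' processing notes name Trimmomatic and FastQC. Which aligner, quantifier and genome served is not given in the sources used here. FPKM are not counts, so no count model was run, and the count tools planned for raw counts did not apply. What 1 fragment adds to FPKM in each library, relative to control replicate 2, was estimated from genes that lay below 1 FPKM, as the offsets at which most ratios between libraries lay at 1 to 1 (within 0.03, log2).

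Values were tested as log2(FPKM + 1) for the 10766 genes that reached 1 FPKM in 3 libraries or more, with limma 3.58.1 in R 4.3.3 (mean-variance trend, two-sided, Benjamini-Hochberg over all these genes, threshold 0.05). Differences on this scale understate the change of low genes. The fits were tested on simulated data. Same-numbered libraries correlated at 0.747, 0.364 and 0.216 in their deviations from group means, all above 0.1. For this reason limma was also run with a block on replicate number, beside the main test, which had no block. The labels state no pairing, and replicates 2 and 3 correlated more across numbers (0.433 and 0.500). Every SE and limma p printed here comes from a test without a block, except where the block is named. The block changed no call of a potassium channel gene.

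Members and lists were chosen with earlier results of these data known. Of the 24 tested members, 22 are named; the other 2, and 1 gene of a further list, stay in the counts and are not reported here by name. For named members, log2 differences with p are given for those without overlap or with unadjusted p under 0.05, for the member with the highest mean in each subfamily, and for Kcnj10, Kcna3 and Kcna6; Kcnj16 and Kcna5, also named by rule, were not tested and are given by their values. Rows reaching 1 FPKM in any library are named, as are the 5 genes with the smallest p of each further list. Other low members were chosen after their values were seen.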

Additional observations from a re-analysis of the deposited data

How the results depend on the processing

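Across 15 alternatives, 0 potassium channel genes passed an adjusted p of 0.05 in either direction (limma). These were other pseudocounts (0.1 and 5), filters, scalings, the replicate block, replicates 2 and 3 only, and 6 fits leaving out 1 library. Among all tested genes, 12 were called with the replicate block and 3 without fibril replicate 3. With the block and scaling without mitochondrial genes it was 1. The remaining alternatives called 0, so hardly any gene of any kind passed. The smallest adjusted p among the members ran from 0.306 with the replicate block to 1.00 without fibril replicate 3. Other counts moved. No filter gave 71 genes to test and a filter of 1 FPKM in all 6 libraries gave 7. The genes with all fibril libraries below all controls were then 5 (7.04%, against 4.7% of all genes) and 1 (14.3%, against 4.56%). They were 1 when scaled without mitochondrial genes, with or without the replicate block (4.17%, against 7.06%), 12 with replicates 2 and 3 only (50%, against 24.2%), and 3 to 11 when 1 library was left out (12.5% to 45.8%, against 6.58% to 18.7%). Those with all fibril libraries above all controls were 0 when scaled without mitochondrial genes, with or without the block (against 2.5% of all genes), 2 with replicates 2 and 3 only (8.33%, against 18%), and 1 to 2 when 1 library was left out (4.17% to 8.33%, against 5.81% to 11.4%). Fewer libraries make separation easier for every gene. The median log2 difference stayed negative in all 15, from -0.82 with a pseudocount of 0.1 to -0.07 with no filter.

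Of 15 single-gene differences, 10 kept their sign throughout. Kcna6 turned to 0.10 under quantile normalization and ran from -0.41 to 0.32 when 1 library was left out. Kcnh2 turned to 0.038 with a pseudocount of 0.1 and 0.25 under quantile normalization, and ran from -0.45 to 0.40. Kcne4 ran from -0.19 to 1.89, Kcnmb4 from -0.18 to 1.15 and Kcnt1 from -0.0925 to 0.93 when 1 library was left out. The cause was not tested. Shallow replicate 1 libraries limit members under about 1 FPKM. The replacement of limma by DESeq2 was planned for counts only and was not run.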

Other observations

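Ratios of 2 genes within a library do not change when a whole library is scaled by a single factor, although quantile normalization can change them. The pairs below were chosen after their values were seen, and no test was run. The FPKM ratio of Kcnj12 to Kcnj10, the 2 most abundant inward rectifier genes, was 0.539, 0.203 and 0.277 in control replicates 1, 2 and 3. With fibrils it was 2.21, 1.02 and 5.03, so Kcnj10 was the higher of the 2 in every control library and Kcnj12 in every fibril library. Neither gene passed the limma test (adjusted p = 0.948 for Kcnj12 and 0.96 for Kcnj10).

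The ratio of the beta subunit gene Kcnmb4 to its pore gene Kcnma1 was 5.06, 3.76 and 3.07 in controls and 6.27, 7.72 and 129 with fibrils. The groups did not overlap, but 6.27 in fibril replicate 1 lay close to 5.06 in control replicate 1, both shallow libraries. Fibril replicate 3 stood far above the rest, with Kcnma1 at only 0.515 FPKM and Kcnmb4 at 66.5 FPKM in that library. The ratio of Kcnip3 to its pore partner Kcnd3 was 4.27, 10.6 and 8.31 against 4.44, 6.65 and 16.3, and the groups overlapped, with fibril replicate 3 the highest library.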
